A study of Oncorhynchus gorbuscha with 76 samples.

Results

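The ovary of pink salmon (Oncorhynchus gorbuscha) was compared between fish at spawning and fish in the ocean, by sequencing the poly(A)-selected RNA of gonad tissue. The members were chosen by their labels: 5 libraries labelled spawning, female and gonads, and 4 labelled ocean, female and gonads, 9 of the 76 libraries of the study. The study sampled muscle, head kidney and gonads of both sexes in the ocean, in the river and at spawning. The 4 ovary libraries of the river stage were used as a further group, and the female head kidney and muscle libraries as other tissues. Of these tissues the ocean and spawning stages were compared, and the river libraries entered the fit only. All these fish carried the same species label and no treatment other than the stage, and the labels give no age, strain or population. Nothing in the labels says whether a library came from 1 fish or a pool, so p-values measure the spread between these libraries. Libraries are called below by stage and by the number in their label.

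Pink salmon mature once, migrate from the sea into a river, stop feeding, spawn and die. In the fish ovary each egg grows inside a follicle made of an inner granulosa and an outer theca layer, held in connective tissue with blood vessels and contractile cells. Pituitary follicle-stimulating and luteinizing hormones act on receptors of the follicle wall, which makes oestrogen while yolk is laid down and then switches to progestins that start the last maturation of the egg. Ovulation opens the follicle wall and releases the egg, and the emptied wall stays behind and regresses.

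At spawning the ovary carried much more RNA of several steroid pathway genes and of both gonadotropin receptors. It carried much less RNA of collagens and other matrix proteins, of smooth muscle, of the cell cycle and of ribosomal proteins. The cholesterol carrier star rose 25.6-fold, the receptor fshr 15.6-fold, and the cortisol-responsive gene fkbp5 30.9-fold. The collagen gene col1a2 fell by 4.50 ± 0.38 (SE) on the log2 scale, the smooth muscle actin acta2 by 5.36 ± 0.71 and the proliferation marker mki67 by 4.63 ± 0.35. In bulk tissue, fewer cells of a type and less RNA per cell cannot be told apart, and this holds for every change given here.

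Of 28339 genes tested, 10286 (36.3%) changed between ocean and spawning: 4608 (16.3%) rose and 5678 (20.0%) fell. The test was edgeR's quasi-likelihood test on counts, 2-sided, with Benjamini-Hochberg adjustment over all genes tested, and a gene was called at an adjusted p under 0.05. The same test stands behind each adjusted p below, fold changes are on the log2 scale with their standard error, and levels are normalised read counts (CPM), scaled by the TMM method. The standard error was derived from the test, as the size of the fold change over the square root of its F statistic. Among the called genes 2350 rose and 3700 fell by more than 1 on the log2 scale, and 272 rose and 351 fell by more than 4. The median change over all genes was -0.02. For 8227 genes (29.0%) the lowest library of one stage lay above the highest of the other. With library size alone as the scale, 6148 genes rose and 4238 fell and the median moved to 0.16. In a fit of ocean and spawning libraries alone 4339 rose and 4337 fell. In every other alternative fit more genes fell than rose. The division between rises and falls thus depends on the scaling and on the libraries fitted. Of the tested genes 6527 carry a symbol, of which 1014 rose and 1327 fell, and the others have only a locus number.

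The 13 ovary libraries held 13280908 to 17299373 counts each, with 25272 to 27676 genes at 10 counts or more. On the 1000 most variable genes, the first principal component held 49.1% of the variance and set all 5 spawning libraries on the other side of the 8 ocean and river libraries. The second held 22.8% and spread libraries within each stage. Markers of the labelled tissue were looked up. The follicle wall markers fshr, lhcgr, amh and star, genes that the testis also makes, were present in every library. The oocyte markers were not: gdf9 and figla, which oocytes make, were at 0 in all ocean and river libraries and in spawning 1, 2 and 4. Their levels were 8.05 and 5.46 CPM in spawning 3 and 1.21 and 0.727 CPM in spawning 5. Over gdf9, bmp15, zar1, figla and ddx4 the summed level was 1.07 to 3.49 CPM in the ocean, 0.947 to 2.92 in the river and 1.04, 1.07, 43.9, 0.563 and 6.30 at spawning, in the order of libraries 1 to 5. The sums of spawning 3 and 5 were above those of the other 11 ovary libraries, among which ocean 2 was highest, with ddx4 as its main part. None of the egg coat symbols on the list matched a gene name in the files, and the coat genes were not analysed here. The symbols foxl2a, gsdf and dazl matched none either. The 5 testis markers summed to 0.782 to 22.15 CPM in the ocean, 1.062 to 5.984 in the river and 1.788 to 40.7 at spawning. The follicle wall markers do not tell ovary from testis, so the label was not tested by them.

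Other cell types also differed between libraries. The 29 motile cilium genes, which build beating cilia, summed to 1054, 81.2, 533 and 204 CPM in ocean 2, 4, 5 and 7 and to 786, 88.4, 1759, 77.0 and 138 in spawning 1 to 5. Ocean 2, spawning 1 and spawning 3 were high, ocean 4, spawning 2 and spawning 4 were low, and the stages overlapped. The 6 smooth muscle genes summed to 15090.0, 17940.0, 5585 and 2050.0 CPM in the ocean libraries, 2131, 6954, 7196 and 12480.0 in the river and 745, 240.4, 452, 240.0 and 412 at spawning. All ocean and river sums were above all spawning sums, and ocean 2 and 4 were the highest of the ocean. Fits without these libraries were added after the data were seen, and below their adjusted p-values stand beside named genes that lost the call in them. Calls lost in a fit with equal library numbers as a replicate block are not marked gene by gene below and are taken up in the closing section. Without ocean 2 and 4 together, 2823 genes rose and 3684 fell. Without spawning 3 and 5 the counts were 4817 and 5263, and without ocean 2, spawning 1 and spawning 3 they were 4379 and 4918.

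**Figure D1:**
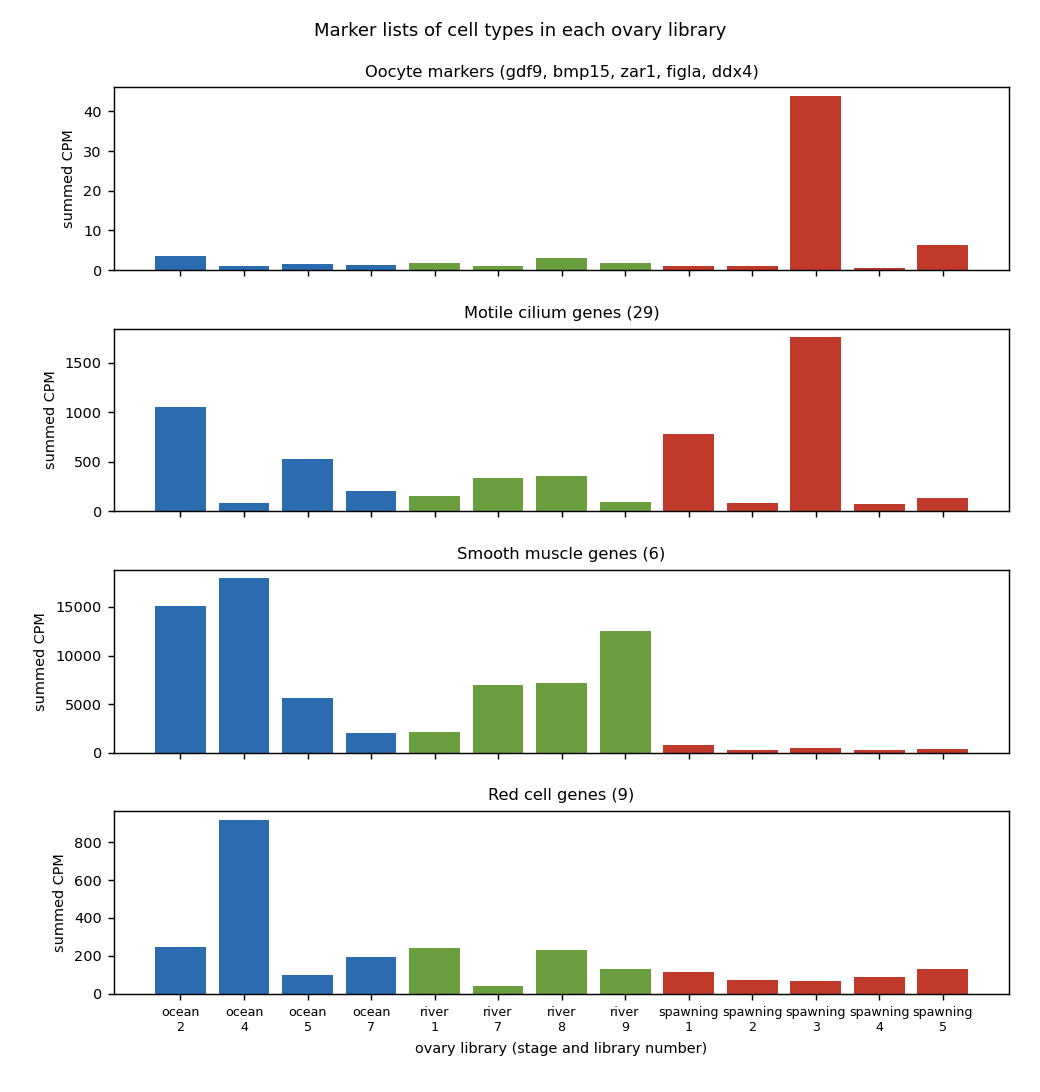
Summed CPM of 4 marker lists (vertical axes, linear from 0) in each ovary library (horizontal axis, stage and library number). Oocyte markers stand above 5 CPM in spawning 3 and 5 alone, cilium genes are high in libraries of both stages, and smooth muscle sums are below 1000 CPM in all 5 spawning libraries.

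Of 10 tested genes of the steroid synthesis list 6 rose and 1 fell, and hsd17b3, srd5a1 and tspo were not called. The list median was 1.81 against -0.02 over all genes. Over all genes 16.3% rose and 20.0% fell, the background beside which each list count below stands. The risers cover cholesterol uptake (scarb1), its delivery into mitochondria (star), the electron supply of the mitochondrial enzymes (fdxr, fdx1b), the dehydrogenase that makes progesterone (hsd3b1) and a transcription factor of these genes (nr5a1b).

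The level of star was 15.3, 52.0, 52.5 and 29.5 CPM in ocean 2, 4, 5 and 7 and 493, 1277, 1112, 1013 and 896 CPM in spawning 1 to 5. The lowest spawning library was several times above the highest ocean library. The change was 4.68 ± 0.41 (adjusted p = 6.55e-06). For hsd3b1 the ocean libraries held 18.5, 22.2, 55.8 and 29.9 CPM and the spawning libraries 848, 1499.7, 1246, 1438 and 1636 CPM. Again the stages were far apart, and the change was 5.40 ± 0.45 (adjusted p = 4.67e-06), the tenth largest rise of the genes named by fold. The regulator nr5a1b stood at 7.69, 11.8, 24.9 and 40.5 CPM in the ocean and 106, 200.1, 83.7, 111 and 175 CPM at spawning, without overlap, and rose by 2.67 ± 0.45 (adjusted p = 0.000609). The electron carriers moved less: fdxr rose by 1.72 ± 0.18 and fdx1b by 1.90 ± 0.34 (adjusted p = 2.07e-05 and 0.00101). The lipoprotein receptor scarb1 was low in the ocean, at 0.280 to 0.624 CPM, and reached 0.876 to 10.1 CPM at spawning (change 2.92 ± 0.72, adjusted p = 0.00704; 0.0662 without ocean 2 and 4). The carbonyl reductase cbr1 was the 1 member that fell, by 0.57 ± 0.17 (adjusted p = 0.0192), with 46.2 to 76.2 CPM in the ocean and 32.8 to 55.9 CPM at spawning, and the stages overlapped. That call was lost without ocean 2 (0.0957), spawning 1 (0.0537) and spawning 2 (0.0614), and with library size alone (0.0738), in a fit of ocean and spawning libraries alone (0.0616) and without ocean 2 and 4 (0.177). The symbols cyp11a1, cyp17a1 and cyp19a1a matched no gene name, and these enzymes were not analysed here.

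Both gonadotropin receptors rose, and the nuclear sex steroid receptors esr2a and pgr fell, with calls that depended on single libraries or settings. The receptor for follicle-stimulating hormone, fshr, was at 5.52, 11.2, 17.7 and 13.8 CPM in the ocean libraries and 146, 247, 123, 210.1 and 214 CPM in the spawning libraries. No ocean library came near the lowest spawning library, and the change was 3.96 ± 0.33 (adjusted p = 5.34e-06). The receptor for luteinizing hormone, lhcgr, was at 13.6, 18.0, 32.3 and 30.6 CPM in the ocean and 78.8, 119.6, 60.8, 113 and 105 CPM at spawning. It rose by 2.01 ± 0.32 (adjusted p = 0.000419), and its river libraries, at 44.8, 97.4, 66.1 and 50.8 CPM, lay between and reached into the spawning range. The oestrogen receptor esr2a was at 153 to 250.4 CPM in the ocean and 83.6 to 135 CPM at spawning and fell by 0.84 ± 0.21 (adjusted p = 0.00803; 0.0548 without ocean 2 and 4). The oestrogen receptor esr1 had a change of -0.16 ± 0.27 (adjusted p = 0.691), with 10.8 to 24.7 CPM in the ocean and 10.7 to 19.6 CPM at spawning.

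The nuclear progestin receptor pgr, needed for ovulation in zebrafish, was at 144, 246, 159 and 195 CPM in the ocean and 194, 89.2, 78.2, 63.0 and 75.6 CPM at spawning. Spawning 1 lay among the ocean libraries and the other 4 below them. The change was -0.89 ± 0.33 with an adjusted p of 0.0495, at the edge of the threshold. The call was lost when any 1 of 8 of the 9 ocean and spawning libraries was left out (0.0504 to 0.141), with RLE scaling (0.0529), with library size alone (0.0728), with no filter on low counts (0.0575), in a fit of ocean and spawning libraries alone (0.0645), without spawning 3 and 5 (0.197) and without ocean 2 and 4 (0.171). The membrane progestin receptor component pgrmc2 rose by 0.37 ± 0.11 (adjusted p = 0.0247) and lost its call without ocean 2 (0.068), ocean 7 (0.0573) and spawning 5 (0.0515), and without spawning 3 and 5 (0.0711) and without ocean 2 and 4 (0.124). Of 8 tested receptors 3 rose and 2 fell (0 without ocean 2 and 4), with a median of -0.07.

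The transforming growth factor family, which carries signals between oocyte, granulosa and theca, moved mostly upwards. Of 17 tested members 9 rose and 2 fell (median 0.86), and 5 of 19 tested rose without ocean 2 and 4. The granulosa hormone amh was at 16.8, 58.3, 60.6 and 49.8 CPM in the ocean and 149, 252, 102, 537 and 340.1 CPM at spawning, with the lowest spawning library above the highest ocean one. It rose by 2.57 ± 0.48 (adjusted p = 0.0013). Of the receptors, the activin receptor acvr2aa rose by 1.98 ± 0.22 (adjusted p = 3.06e-05), with spawning 4 at 142.6 CPM above the other 4 at 66.9 to 75.1 CPM. The bone morphogenetic protein receptor bmpr1bb rose by 2.36 ± 0.38 (adjusted p = 0.000442), with 4.36 to 9.45 CPM in the ocean and 20.5 to 45.8 CPM at spawning. Of the ligands, tgfb2 fell by 1.81 ± 0.26 (adjusted p = 0.000198), with 32.4 to 60.0 CPM in the ocean and 9.20 to 21.3 CPM at spawning. The signal transducer smad9 fell by 1.99 ± 0.49 (adjusted p = 0.00695; 0.0842 without ocean 2 and 4). The oocyte ligands gdf9 and bmp15 of this list did not pass the filter on low counts.

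The 10 largest rises among genes with a symbol, a mean level of at least 3 on the log2 CPM scale and no overlap between the stages included several genes of membrane transport and signalling. The chloride channel cftr, which drives fluid secretion across epithelia, was at 1.47, 3.48, 1.91 and 2.49 CPM in the ocean and 243, 183, 80.6, 96.9 and 140.0 CPM at spawning. It rose 63.4-fold (5.99 ± 0.43, adjusted p = 1.90e-06). The potassium channel kcnk3a was at 3.07, 2.91, 0.658 and 0 CPM in the ocean, with ocean 7 at 0, and at 137, 99.4, 44.1, 115 and 30.4 CPM at spawning (5.70 ± 0.83, adjusted p = 0.000222). Beside these, and chosen after their values were seen, the anion exchanger slc4a2a rose by 4.49 ± 0.30 (adjusted p = 1.07e-06) and wnk4a, a kinase that controls ion transporters, by 4.94 ± 0.43 (adjusted p = 6.98e-06). Of these genes only cftr is on the water and ion transport list. Of the 12 tested genes of that list 3 rose and 3 fell, with a median of 0.10. The list as a whole thus went neither way, and its fallers are not described here.

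The coagulation factor gene f5 had the largest of these rises, from 1.61, 2.35, 0.538 and 0.686 CPM to 281, 99.3, 154, 137 and 90.7 CPM (6.89 ± 0.51, adjusted p = 2.34e-06). The gene rapgef4a, whose product is switched on by cyclic AMP, the messenger of the gonadotropin receptors, was at 2.38, 3.84, 3.59 and 2.62 CPM in the ocean and 218, 288, 233, 262 and 319 CPM at spawning. All 5 spawning libraries were close to one another and the change was 6.41 ± 0.29 (adjusted p = 2.60e-07). The cell surface protein gene adam22 was at 0.853 to 2.99 CPM in the ocean and 108 to 193 CPM at spawning (6.33 ± 0.44, adjusted p = 1.42e-06). The gene rasd1, a small G protein first described as induced by dexamethasone, rose by 5.50 ± 0.63 (adjusted p = 3.96e-05), and its river libraries were at 2.69 to 7.42 CPM, all above the ocean at 0.498 to 1.37 CPM. The gene oit3, which encodes a secreted protein with a zona pellucida domain, rose by 5.93 ± 0.72 (adjusted p = 6.24e-05). The other 2 of the 10 have clone names only.

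Genes of the connective tissue fell together. Of 27 tested genes of collagens and other matrix proteins 20 fell and none rose, the fold changes of all 27 were below 0, and the median was -2.45. The summed level of the list was 62360.0, 69260.0, 52200.0 and 32400.0 CPM in the ocean libraries and 8014, 3623, 3263, 2737 and 4894 CPM at spawning. Fibrillar collagen led in level: col1a2 was at 23579, 25528, 20341 and 11901 CPM in the ocean, 10829, 15651, 16052 and 12914 CPM in the river and 1372, 767, 701, 483 and 1169.6 CPM at spawning. No spawning library reached the lowest ocean or river library, and the fall was 4.50 ± 0.38 (adjusted p = 5.81e-06). Its partner chain col1a1b fell by 4.44 ± 0.47 (adjusted p = 2.26e-05) and the matrix protein sparc by 3.55 ± 0.35 (adjusted p = 1.50e-05), both chosen with col1a2 after their values were seen.

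The small proteoglycans lum and ogna, which space collagen fibrils, were among the 10 largest falls. The level of lum was 653, 342, 589.9 and 223 CPM in the ocean and 9.04, 13.9, 8.20, 8.20 and 13.6 CPM at spawning (-5.41 ± 0.34, adjusted p = 7.78e-07). For ogna the level was 62.2 to 147 CPM in the ocean and 1.13 to 6.00 CPM at spawning (-5.17 ± 0.50, adjusted p = 1.29e-05). In the same group were col6a3, a microfibril collagen, at -4.97 ± 0.48 (adjusted p = 1.35e-05), the Wnt inhibitor frzb at -5.35 ± 0.73 (adjusted p = 0.000132) and the tendon glycoprotein tnmd at -4.71 ± 0.50 (adjusted p = 2.24e-05). The collagen chaperone serpinh1a fell with them, from 511, 416, 390.1 and 294 CPM to 52.1, 33.6, 32.3, 22.8 and 42.7 CPM (-3.46 ± 0.25, adjusted p = 1.71e-06). Tenascin, tnca, was at 1364, 2331, 252 and 167 CPM in the ocean and 66.2, 1.79, 30.8, 7.63 and 17.1 CPM at spawning (-5.38 ± 1.16, adjusted p = 0.00314). Its level followed the smooth muscle genes across the ocean libraries, and without ocean 2 and 4 its adjusted p was 0.0569.

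Of 6 smooth muscle genes 5 fell and none rose (median -3.44), and 3 fell without ocean 2 and 4. The actin acta2 was at 8588, 10142, 3279.8 and 1080.0 CPM in the ocean, 1159, 3827, 3896 and 6409 CPM in the river and 233, 108, 173, 58.8 and 129 CPM at spawning. Its ocean libraries ranged widely, yet the lowest of them was above every spawning library, and the fall was 5.36 ± 0.71 (adjusted p = 0.00011; 0.00125 without ocean 2 and 4). The actin-binding tagln fell by 4.38 ± 0.68 (adjusted p = 0.00035; 0.00566 without these libraries). The tropomyosin tpm2 fell by 3.95 ± 0.88 (adjusted p = 0.00388), from 1555, 2258, 409 and 131 CPM to 154, 29.4, 90.4, 26.9 and 50.8 CPM. Ocean 7 lay below spawning 1, and the adjusted p was 0.11 without ocean 2 and 4.

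Genes of DNA replication and mitosis were low in every spawning library. Of 34 tested members 28 fell and 1 rose, with a median of -2.63, and for 27 of them the stages did not overlap. The summed level was 919.8, 875, 963 and 836 CPM in the ocean libraries, 655, 604, 630.5 and 570.0 in the river and 122, 123, 273, 148 and 196 at spawning. The proliferation marker mki67 was at 69.9, 83.6, 88.2 and 79.8 CPM in the ocean and 3.64, 0.954, 3.52, 2.32 and 5.76 CPM at spawning (-4.63 ± 0.35, adjusted p = 2.65e-06). The helicase subunit mcm3, which licenses replication origins, went from 45.1, 40.3, 47.8 and 45.2 CPM to 0.325, 0.656, 5.61, 1.19 and 2.73 CPM (-4.42 ± 0.57, adjusted p = 8.53e-05). Spawning 3, the library with most oocyte RNA, was the highest spawning library for mcm3. The mitotic kinesin kif20a fell by 4.41 ± 0.74 (adjusted p = 0.000618). The topoisomerase top2a, chosen after its values were seen, fell by 3.95 ± 0.30 (adjusted p = 2.77e-06). The 1 member that rose was rrm2b, the ribonucleotide reductase subunit that p53 induces for DNA repair in mammals, with 1.08 to 2.38 CPM in the ocean and 6.11 to 16.1 CPM at spawning (2.91 ± 0.46, adjusted p = 0.000396).

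All 24 tested ribosomal protein genes fell, between 1.07 and 1.94 on the log2 scale (median -1.45), and for each of them the stages did not overlap. The largest fall was that of rps20, from 586, 509, 526 and 409 CPM to 115, 103, 140.2, 139 and 165 CPM (-1.94 ± 0.18, adjusted p = 1.01e-05). The falls of rps12 and rpl28 were 1.90 ± 0.19 and 1.64 ± 0.14 (adjusted p = 1.47e-05 and 4.67e-06). Of 15 chaperone genes 6 fell and 1 rose (median -0.32; rises 1 to 2 with any 1 library left out). The fallers included serpinh1a and 4 subunits of the cytosolic chaperonin, such as cct4 at -1.03 ± 0.18 (adjusted p = 0.000672). Of 32 genes of mitochondrial respiration 10 fell (median -0.27), none by more than 1.14, and 4 fell without ocean 2 and 4. The 1 that rose was ndufs4, a complex I subunit, from 24.1, 20.2, 20.5 and 19.3 CPM to 61.5, 84.2, 75.9, 102 and 82.0 CPM (1.95 ± 0.14, adjusted p = 2.06e-06). Of 16 proteasome genes 4 rose, by 0.33 to 0.65, and 2 fell (median -0.09), and 2 rose without any 1 of ocean 4, 5 and 7 or spawning 2 and 4.

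**Figure D2:**
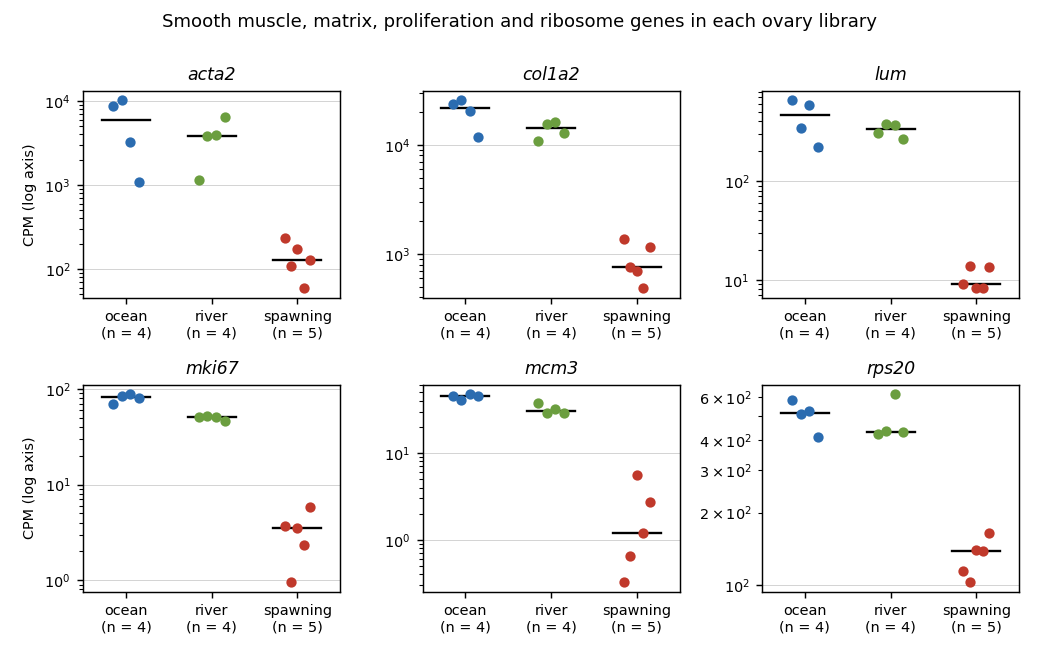
CPM of 6 genes that fell (log axis) in each ocean, river and spawning ovary library, with 1 point per library and a bar at the stage median. Every spawning point lies below every ocean and river point in all 6 panels, and acta2 spreads widely within the ocean and the river.

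**Figure D3:**
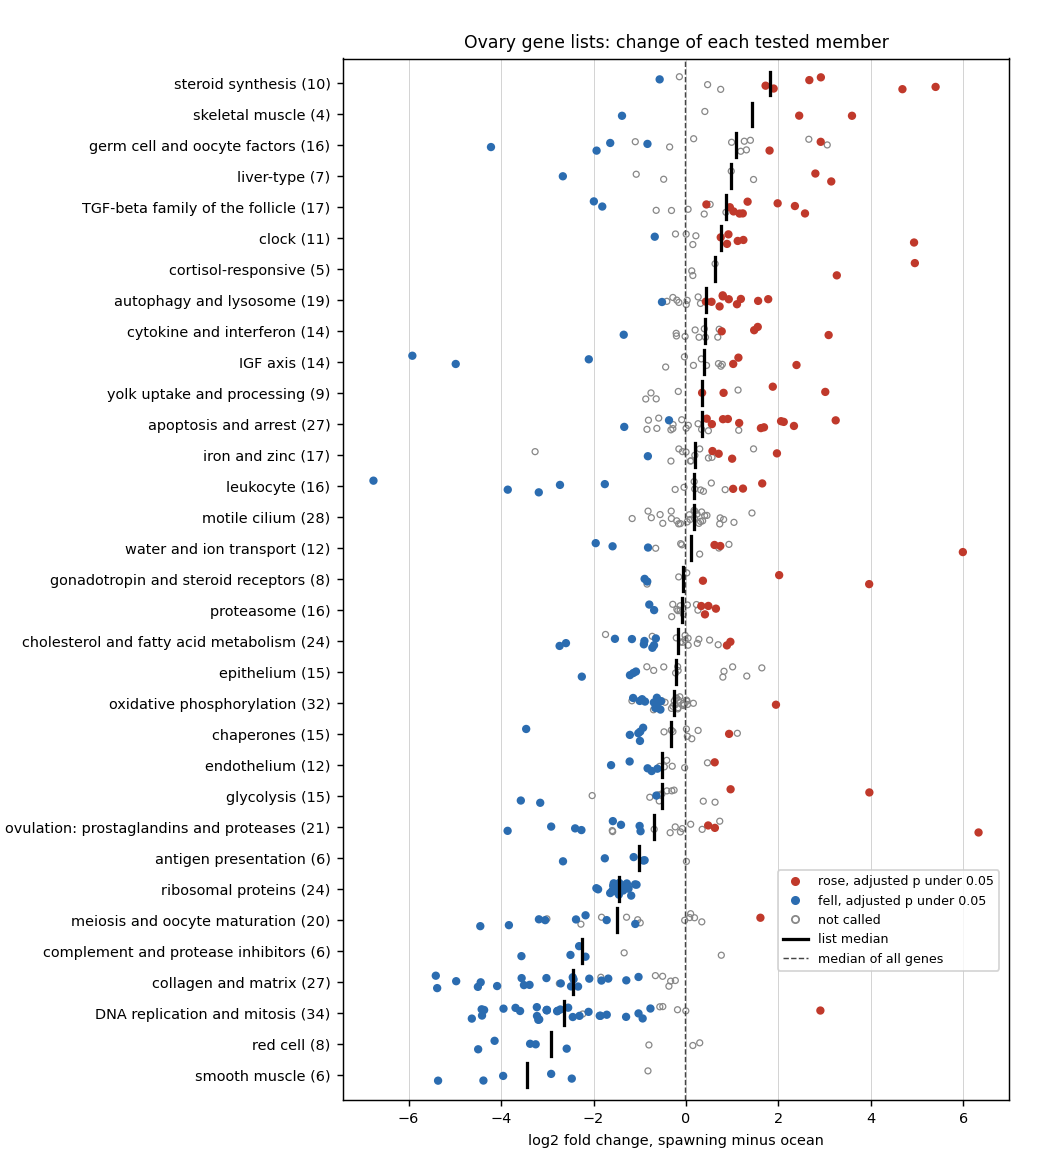
Log2 fold change from ocean to spawning (horizontal axis) of each tested member of the gene lists with at least 4 tested members, ordered by list median (black bar), with the number tested in brackets. Filled points passed an adjusted p under 0.05, open points did not, and the dashed line marks the median of all genes at -0.02. Smooth muscle, red cell, replication and matrix lists lie farthest left and steroid synthesis farthest right.

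Prostaglandins and proteases act in the opening of the follicle wall at ovulation. The list used here holds genes of prostaglandin synthesis and receptors, members of protease families whether or not active as proteases, protease inhibitors and the endothelin edn1. Of its 21 tested genes 8 fell and 3 rose (median -0.69). The cyclooxygenase ptgs1, which starts prostaglandin synthesis, was at 88.5, 52.5, 36.3 and 30.5 CPM in the ocean and 5.01, 1.67, 7.33, 1.25 and 2.73 CPM at spawning (-3.86 ± 0.48, adjusted p = 6.87e-05). The prostaglandin synthase ptges fell by 2.26 ± 0.42 (adjusted p = 0.00123). The inducible cyclooxygenase ptgs2b was near the detection limit, at 0.499 to 2.81 CPM in the ocean and 0 to 0.325 CPM at spawning (-2.92 ± 0.81, adjusted p = 0.0138), and lost its call without ocean 5 (0.0648), and without spawning 3 and 5 (0.0549). The membrane metalloproteinase mmp15a went from 47.8, 43.7, 79.8 and 85.9 CPM to 8.26, 18.5, 8.84, 8.89 and 16.5 CPM (-2.40 ± 0.29, adjusted p = 5.21e-05). The metalloproteinase inhibitor timp2a, chosen after its values were seen, fell by 1.58 ± 0.27 (adjusted p = 0.000706). The risers were adam22, given above, adam17a and adam9, the last by 0.62 ± 0.13 (adjusted p = 0.00229). The symbols ptger4, plat, mmp2 and mmp9 matched no gene name.

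Of 9 tested genes of yolk uptake and breakdown 4 rose and none fell (median 0.35), and 2 rose without ocean 2 or ocean 5 or without ocean 2 and 4 together, with 1 fall in the last. The endocytosis adaptor ldlrap1a, which links low-density lipoprotein receptors to clathrin, was at 6.01, 10.0, 10.6 and 12.0 CPM in the ocean and 82.9, 79.2, 36.6, 79.8 and 112 CPM at spawning (3.01 ± 0.31, adjusted p = 1.86e-05). The lysosomal protease ctsba went from 153, 356, 426 and 647 CPM to 1568, 1538, 993, 1536 and 1631 CPM (1.88 ± 0.34, adjusted p = 0.00102), and the proton pump subunit atp6v0cb rose by 0.81 ± 0.28 (adjusted p = 0.0366), a call lost when any 1 of 6 of the 9 libraries was left out (0.0537 to 0.104), without ocean 2, spawning 1 and spawning 3 (0.0724), without spawning 3 and 5 (0.0633) and without ocean 2 and 4 (0.23). The oocyte markers gdf9 and figla were at 0 in most ovary libraries, as given above. Spawning 3, with the highest oocyte marker sum, was the lowest spawning library for both ldlrap1a and ctsba. The receptor symbol vldlr matched no gene name and was not analysed here. Whether these changes concern yolk was not tested.

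Genes of germ cells and meiosis were mostly low in both stages. Of 16 tested germ cell and oocyte factors, out of 30 matched, 2 rose and 4 fell (2 without ocean 2 and 4), whereas the list median of 1.08 was above 0. Of 20 tested meiosis genes, out of 29 matched, 8 fell and 1 rose (median -1.50), 5 fell without any 1 of ocean 2 and spawning 1, 4 and 5, and 4 without ocean 2 and 4 together. The germ cell helicase ddx4 was at 3.14, 0.782, 1.14 and 1.25 CPM in the ocean and 0, 0.417, 16.1, 0 and 2.48 CPM at spawning. Spawning 3 was high, spawning 1 and 4 were at 0, and the change was 1.26 ± 1.31 (adjusted p = 0.491). Without spawning 3 and 5 the direction turned, to -3.33 (adjusted p = 0.0331). The maternal factor zar1 rose by 2.91 ± 0.80 (adjusted p = 0.0128) from 0.210, 0.142, 0.359 and 0.0624 CPM to 1.04, 0.596, 4.89, 0.501 and 0.606 CPM, with spawning 3 the highest. Without ocean 2 and 4 its adjusted p was 0.104. Without any 1 of spawning 1, 2, 3 and 5 zar1 did not pass the filter on low counts and was not tested. The same held without spawning 3 and 5 together and without ocean 2, spawning 1 and spawning 3. No gene of this list rose without spawning 3 or without spawning 5, and 1 rose without spawning 1.

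Several meiotic chromosome genes were higher in the ocean, at low levels. The axis protein gene hormad1, chosen after its values were seen, as were rec8b, sycp1 and henmt1, was at 4.12, 0.924, 2.33 and 1.25 CPM in the ocean and 0.0651, 0, 0.216, 0.125 and 0.0606 CPM at spawning (-4.45 ± 0.68, adjusted p = 0.000329). The meiotic cohesin rec8b went from 2.52, 1.42, 1.67 and 1.68 CPM to 0.130, 0.119, 0.359, 0.188 and 0.182 CPM (-3.18 ± 0.47, adjusted p = 0.000267). The synaptonemal complex gene sycp1 was at 5.52, 0.924, 0.0598 and 1.18 CPM in the ocean and 0, 0.298, 0.216, 0 and 0.121 CPM at spawning, with overlap (-3.83 ± 1.40, adjusted p = 0.0481), and lost its call when any 1 of 8 of the 9 libraries was left out (0.0592 to 0.221), with RLE scaling (0.0501), with library size alone (0.0549), with no filter on low counts (0.059), without ocean 2, spawning 1 and spawning 3 (0.342), without spawning 3 and 5 (0.12) and without ocean 2 and 4 (0.357). The only riser of the meiosis list, the mismatch repair gene msh5, changed by 1.61 ± 0.51 (adjusted p = 0.0264) and lost its call without ocean 2 (0.0656), ocean 5 (0.0771), ocean 7 (0.0633) and spawning 1 (0.0515), and without ocean 2, spawning 1 and spawning 3 (0.15) and without spawning 3 and 5 (0.0566). Of the fallers that dividing somatic cells also use, the survivin gene birc5a fell by 3.04 ± 0.64 (adjusted p = 0.00259) and the separase gene espl1 by 2.38 ± 0.61 (adjusted p = 0.00843). The small RNA methylase henmt1 fell by 4.22 ± 1.00 (adjusted p = 0.00569; 0.0506 without ocean 2 and 4). The RNA-binding proteins ybx1 and rbpms2a, which many cell types hold, fell by 1.64 ± 0.17 and 1.93 ± 0.32 (adjusted p = 2.20e-05 and 0.000589).

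Of 5 tested genes that respond to cortisol in many vertebrate tissues 2 rose and none fell (median 0.63). The chaperone fkbp5 was at 25.1, 49.5, 56.4 and 29.3 CPM in the ocean, 56.4, 93.8, 64.5 and 78.0 CPM in the river and 1170.2, 1242, 1038, 1342 and 1397 CPM at spawning. The 5 spawning libraries were close together and far above all others, and the change was 4.95 ± 0.30 (adjusted p = 6.01e-07). The transcription factor klf9 went from 11.6, 15.8, 16.4 and 5.61 CPM to 97.9, 94.5, 79.6, 148 and 172 CPM (3.26 ± 0.37, adjusted p = 4.15e-05). The other 3 tested members, dusp1, per1b and pdk4, were not called, with changes of 0.12 to 0.63.

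Genes of cell cycle arrest, cell death and autophagy rose more often than they fell. Of 27 tested genes of apoptosis and arrest 11 rose and 2 fell (median 0.34; falls 1 to 2 with any 1 library left out). The stress-induced gadd45ga was at 4.89, 4.62, 10.6 and 13.3 CPM in the ocean and 68.6, 68.3, 59.1, 106 and 93.7 CPM at spawning (3.24 ± 0.33, adjusted p = 1.99e-05). The sestrin sesn1, a stress gene that restrains growth signalling, went from 145, 146, 166 and 171 CPM to 1077, 558, 514, 729 and 1084 CPM (2.33 ± 0.24, adjusted p = 2.14e-05). The p53-responsive tp53inp1 rose by 2.11 ± 0.24 (adjusted p = 3.98e-05). Chosen after their values were seen, the kinase inhibitor cdkn1cb rose by 2.06 ± 0.30 (adjusted p = 0.000203) and the death gene bbc3 by 1.69 ± 0.27 (adjusted p = 0.000495). Of 19 autophagy and lysosome genes 10 rose and 1 fell (median 0.43; falls 0 to 1 with any 1 library left out). The lysosome regulator tfeb went from 9.36, 15.6, 12.7 and 17.0 CPM to 55.5, 57.6, 28.3, 43.7 and 49.1 CPM (1.78 ± 0.27, adjusted p = 0.000298), the autophagy receptor sqstm1 rose by 1.19 ± 0.26 (adjusted p = 0.00321) and atg2a, which feeds lipid to the growing autophagosome, by 1.56 ± 0.21 (adjusted p = 0.000108).

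Within the growth hormone and insulin-like growth factor axis the members went both ways. Of 14 tested genes 3 rose and 3 fell (median 0.39), and 1 rose without ocean 2 and 4. The growth factor igf1 was at 7.34, 16.7, 8.73 and 8.04 CPM in the ocean and 0.586, 0.596, 0.0719, 0.188 and 0.121 CPM at spawning (-4.98 ± 0.54, adjusted p = 2.59e-05). The protease pappa2, which frees growth factor from its binding proteins, went from 1.82, 5.33, 8.07 and 5.61 CPM to 0, 0, 0.288, 0 and 0.121 CPM (-5.92 ± 0.88, adjusted p = 0.000255). The binding protein igfbp7 fell by 2.10 ± 0.16 (adjusted p = 2.66e-06). The growth hormone receptor ghrb rose from 53.9, 46.0, 47.0 and 29.8 CPM to 177, 226, 220.4, 276 and 258 CPM (2.39 ± 0.21, adjusted p = 6.42e-06). The second ligand igf2b rose by 1.02 ± 0.26 and the binding protein igfbp1a by 1.13 ± 0.29 (adjusted p = 0.00806 and 0.00806), and without ocean 2 and 4 these values were 0.0616 and 0.119.

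Of 16 tested leukocyte markers 3 rose (0 without ocean 2 and 4) and 5 fell (median 0.18), and the summed level of the list overlapped between the stages, at 786 to 1314 CPM in the ocean and 914 to 1493 CPM at spawning. The T cell kinase lck was at 1.82, 0.498, 0.299 and 0.935 CPM in the ocean and at 0 in all 5 spawning libraries. With 53 counts over the ocean group it was at least 22.7-fold lower at spawning, taking 3 counts over the spawning group (adjusted p = 0.000893). The T cell co-receptor cd8a had 41 counts in the ocean and 3 at spawning, a ratio of 17.6 with a 95% counting interval of 5.60 to 88.6 (adjusted p = 0.00445). The B cell receptor chain cd79b fell by 3.18 ± 0.65 (adjusted p = 0.00235) and the T cell kinase itk by 2.73 ± 1.00 (adjusted p = 0.0494). The call of itk was lost when any 1 of 7 of the 9 libraries was left out (0.0523 to 0.112), with RLE scaling (0.0523), with library size alone (0.0611), with no filter on low counts (0.0744), without ocean 2, spawning 1 and spawning 3 (0.105), without spawning 3 and 5 (0.0721) and without ocean 2 and 4 (0.113). Another T cell gene of the list, the receptor chain cd247, likewise chosen after its values were seen, had a change of 0.85 (adjusted p = 0.0822), with means of 11.9 CPM in the ocean and 21.4 CPM at spawning, and was not called. The genes lck, cd8a, cd79b and itk were chosen after their values were seen and were below 3 CPM in every ocean library.

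Of the phagocyte genes, the scavenger receptor marco rose by 1.65 ± 0.47, the oxidase subunit ncf4 by 1.23 ± 0.35 and the granulocyte growth factor receptor csf3r by 1.02 ± 0.26 (adjusted p = 0.0151, 0.0156 and 0.0094). Without ocean 2 and 4 none of these 3 was called (adjusted p = 0.0701, 0.11 and 0.0712), and marco was not called without ocean 2, spawning 1 and spawning 3 (0.103). The phagocyte genes cd68, ncf1, c1qa and c1qc were not called, with changes of -0.04 to 0.32. The invariant chain cd74b, which guides class II molecules, was at 108, 96.5, 82.1 and 132 CPM in the ocean and 36.6, 29.3, 26.6, 36.8 and 25.6 CPM at spawning (-1.76 ± 0.24, adjusted p = 0.000135). Of 6 antigen presentation genes 5 fell and none rose (median -1.03), among them the peptide transporter tap1 at -0.92 ± 0.13 and the class I regulator nlrc5 at -1.13 ± 0.34 (adjusted p = 0.000138 and 0.0205). The call of nlrc5 was lost without ocean 4 (0.0513), ocean 7 (0.0551) and spawning 2 (0.0563), and in a fit of ocean and spawning libraries alone (0.0548), without ocean 2, spawning 1 and spawning 3 (0.0716), without spawning 3 and 5 (0.0781) and without ocean 2 and 4 (0.0822). Of 6 tested complement genes 4 fell (median -2.24). The pore subunit c7a went from 1155, 1034, 1496 and 506 CPM to 252, 84.6, 435, 277 and 113 CPM (-2.17 ± 0.46, adjusted p = 0.00291), and c9 fell by 3.56 ± 0.66 (adjusted p = 0.00115). Of 14 cytokine and interferon genes 4 rose (2 without ocean 7, 1 without ocean 2 and 4) and 1 fell (median 0.41), with the inhibitor nfkbiab at 1.55 ± 0.26 and the interferon regulator irf7 at 1.47 ± 0.39 (adjusted p = 0.000537 and 0.0103; 0.104 for irf7 without ocean 2 and 4). The cytokines il1b, il6, il10 and tnfa did not pass the filter on low counts.

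Red cell genes were lower at spawning, with 1 ocean library far above the rest. Of 8 tested genes 5 fell (median -2.92), and the list summed to 249, 919, 97.1 and 191 CPM in ocean 2, 4, 5 and 7 and 114, 74.1, 65.3, 87.7 and 132 CPM at spawning, with overlap. Without ocean 4, or without ocean 2 and 4, only 1 gene fell, and without spawning 3 and 5 only 2. The erythroid gene hemgn was at 55.1, 246, 17.4 and 40.8 CPM in the ocean and 5.66, 1.67, 2.52, 6.57 and 8.97 CPM at spawning (-4.14 ± 0.85, adjusted p = 0.00229). The haem enzyme alas2 fell by 3.25 ± 0.85 (adjusted p = 0.00979) and lost its call without ocean 4 (0.0523). Without ocean 2 and 4 its change was -1.69 (adjusted p = 0.173). The red cell carbonic anhydrase cahz and the heat shock gene hsc70, 2 of the 10 largest falls, were both highest in ocean 4. Their changes were -4.76 ± 0.87 and -4.90 ± 0.98 (adjusted p = 0.00113 and 0.00195).

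Of 12 endothelial genes 5 fell and 1 rose (median -0.52), and 3 fell without ocean 2 and 4. The vessel lining genes vwf and tek fell by 1.62 ± 0.31 and 1.22 ± 0.18 (adjusted p = 0.0016 and 0.000303), and the fenestral diaphragm gene plvapb rose by 0.62 ± 0.16 (adjusted p = 0.00875). Of 15 epithelial genes 4 fell and none rose (median -0.22), and 2 fell without spawning 4 or spawning 5. The keratin krt18b went from 677, 862, 556 and 538 CPM to 327, 211, 198, 254 and 431 CPM (-1.21 ± 0.23, adjusted p = 0.00153), and the junction linker ppl fell by 2.25 ± 0.76 (adjusted p = 0.035), with overlap, a call lost when any 1 of 5 of the 9 libraries was left out (0.059 to 0.0962), in a fit of ocean and spawning libraries alone (0.0548), without spawning 3 and 5 (0.0523) and without ocean 2 and 4 (0.0767). None of 28 tested cilium genes was called (median 0.18; 3 fell without ocean 2, spawning 1 and spawning 3). Of 7 tested liver-type genes 2 rose (agt, hgd; list median 0.98) and 1 fell, the latter the retinol carrier rbp4, from 2968, 5044, 3510.5 and 2161 CPM to 249, 781, 656, 449.5 and 564 CPM (-2.66 ± 0.38, adjusted p = 0.000178). Of 4 skeletal muscle genes 2 rose (actc1a, neb) and 1 fell (ldb3b), with a median of 1.43. Of 2 tested testis markers dmrt1, a male sex factor, rose by 3.92 ± 1.14 (adjusted p = 0.017), from 0, 0, 0.299 and 0.0624 CPM to 3.71, 0.596, 0.0719, 2.19 and 1.15 CPM, with overlap. It did not pass the filter without spawning 1, 2, 4 or 5, and its adjusted p was 0.137 without ocean 2 and 4.

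Metabolic lists had medians near 0 or below, with a few large single changes, and the clock list had a median above 0. Of 24 tested genes of cholesterol and fatty acid metabolism 9 fell and 2 rose (median -0.16). The cholesterol synthesis enzyme lss fell by 2.73 ± 0.35 and the fatty acid carrier fabp3 by 2.60 ± 0.32 (adjusted p = 8.74e-05 and 6.11e-05). Of 15 glycolysis and glucose genes 2 rose and 3 fell (median -0.52; falls 2 to 5 with any 1 library left out). The glucose synthesis enzyme pck1 went from 0.349, 0, 0.418 and 0.436 CPM to 4.68, 7.75, 1.87, 5.94 and 4.12 CPM (3.97 ± 0.80, adjusted p = 0.00205). The lactate dehydrogenase ldha was at 13.3, 18.4, 0.478 and 0.686 CPM in the ocean and 0.325, 0.715, 0.647, 0.751 and 0.970 CPM at spawning (-3.57 ± 1.10, adjusted p = 0.0228). Only ocean 2 and 4, the libraries rich in smooth muscle RNA, were high, and without them the change was 0.25 (adjusted p = 0.896), and the call was also lost without ocean 2 (0.0575), ocean 4 (0.0805) and spawning 1 (0.0522), 0.156 without ocean 2, spawning 1 and spawning 3 and 0.0739 without spawning 3 and 5. Of 17 iron and zinc genes 4 rose and 1 fell (median 0.19; falls 1 to 2 with any 1 library left out). Of 11 clock genes 6 rose and 1 fell (median 0.75; falls 0 to 1 with any 1 library left out), with rorb at 4.93 ± 0.81, from 0.140, 0, 0.299 and 0.561 CPM to 8.39, 9.72, 8.34, 4.88 and 8.85 CPM, and arntl2 at 1.24 ± 0.19 (adjusted p = 0.000551 and 0.000287).

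By counts of called genes the river ovary stood nearer to the ocean ovary than to the spawning ovary, though some genes and lists stood apart. Replication and mitosis genes summed to 570 to 655 CPM in the river libraries. All of these sums were below the ocean sums of 836 to 963 CPM, a difference that was not tested. Between river and ocean 0 of 28339 genes (0.0%) were called with edgeR, 2338 had an unadjusted p under 0.05, and DESeq2 called 147. Between spawning and river 10734 genes (37.9%) were called, 4772 (16.8%) up and 5962 (21.0%) down. The comparisons of spawning with ocean and of river with ocean share the ocean libraries. For star the river libraries held 81.6, 81.8, 101 and 85.8 CPM, all above the ocean range of 15.3 to 52.5 CPM and below the spawning libraries, and the river change was 1.23 ± 0.36 (adjusted p = 0.438). For lhcgr the river change was 1.45 ± 0.33 (adjusted p = 0.333) and the change from river to spawning 0.56 ± 0.30 (adjusted p = 0.166), so neither step alone passed. For col1a2 the change from river to spawning was -3.95 ± 0.38 (adjusted p = 1.08e-05), and for mki67, at 50.3, 51.6, 50.5 and 46.2 CPM in the river, it was -3.94 ± 0.34 (adjusted p = 6.70e-06). The invariant chain cd74b was at 399.6, 217, 203 and 172 CPM in the river, above all ocean libraries, with a river change of 1.24 ± 0.25 (adjusted p = 0.279).

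Whether the change from ocean to spawning differed between tissues was tested in a fit of 37 female libraries. Ovary, head kidney and muscle libraries of a stage share the numbers in their labels, which do not say whether these mark the same fish, and the fit takes the libraries as independent. With the shared number as a replicate block, added after the data were seen, the calls given for rps20 and star were lost and col1a2 and cd74b were called against muscle. The ovary differed from head kidney for 3002 of 31395 genes (9.56%), of which 941 (3.0%) changed more upwards and 2061 (6.56%) more downwards in the ovary. It differed from muscle for 8948 genes (28.5%), with 4514 (14.4%) more upwards and 4434 (14.1%) more downwards. With library size alone as the scale the numbers were 1996 and 1077 against head kidney and 2068 and 7803 against muscle. The median difference over all genes moved from -0.05 to 0.38 and from 0.14 to -0.51. Directions of small differences therefore depend on the scaling.

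The smooth muscle gene acta2 changed by -5.34 ± 0.71 in the ovary, 0.45 ± 0.65 in head kidney and 0.13 ± 0.66 in muscle. The difference was -5.79 ± 0.95 against head kidney and -5.47 ± 0.95 against muscle (adjusted p = 0.00012 and 4.99e-05). The proliferation marker mki67 changed by -4.60 ± 0.36, -0.03 ± 0.34 and -0.73 ± 0.37 in the 3 tissues, and both differences were called (adjusted p = 4.09e-07 and 8.14e-07). The changes of rapgef4a and adam22 were higher in the ovary than in either tissue (differences 5.91 ± 0.51 and 8.30 ± 1.00 for rapgef4a, 7.40 ± 0.65 and 5.71 ± 0.68 for adam22, adjusted p between 1.55e-08 and 2.52e-07). Cortisol-responsive fkbp5 rose in all 3, by 4.99 ± 0.55 in the ovary, 2.52 ± 0.50 in head kidney and 3.04 ± 0.51 in muscle. The ovary exceeded head kidney by 2.47 ± 0.66 and muscle by 1.95 ± 0.66 (adjusted p = 0.0143 and 0.0254). The difference from muscle had an adjusted p of 0.0571 without ocean 2, 0.0511 without ocean 7 and 0.129 with library size alone. For klf9 neither difference was called (adjusted p = 0.265 and 0.847).

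The sestrin sesn1 rose less in the ovary than in muscle, by 2.37 ± 0.30 against 4.49 ± 0.34 and -0.02 ± 0.29 in head kidney, with differences of -2.12 ± 0.40 and 2.39 ± 0.41 (adjusted p = 0.00017 and 0.000208). Collagen col1a2 changed by -4.47 ± 0.41 in the ovary, -0.88 ± 0.39 in head kidney and -3.14 ± 0.42 in muscle. The difference was called against head kidney (adjusted p = 4.50e-05) and not against muscle (0.0602; 0.00342 with library size alone, 0.0207 with DESeq2 and 0.0139 with the block). The growth factor igf1 changed by -4.95 ± 0.66, -1.83 ± 0.61 and -5.64 ± 1.03, and the ovary differed from head kidney (adjusted p = 0.0172) whereas the difference from muscle was not called (0.696). The ribosomal gene rps20 changed by -1.90 ± 0.24, -0.83 ± 0.26 and -2.45 ± 0.27. Its difference from head kidney was called at an adjusted p of 0.0484, lost under most alternatives (0.0558 to 0.0963 without single libraries, 0.219 with library size alone and 0.0735 with the block). For star the ocean head kidney libraries were near 0, at 0 to 0.176 CPM, and the spawning ones spread from 0.135 to 2411 CPM. The sizes of its fitted rise in head kidney and of the tissue difference therefore rest on a base near 0. The ovary change in this fit was 4.72 ± 1.66. The tissue difference had an adjusted p of 0.0379, but 0.0507 to 0.0592 without 6 of the 9 single libraries, 0.0503 with library size alone and 0.653 with the block.

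**Figure D4:**
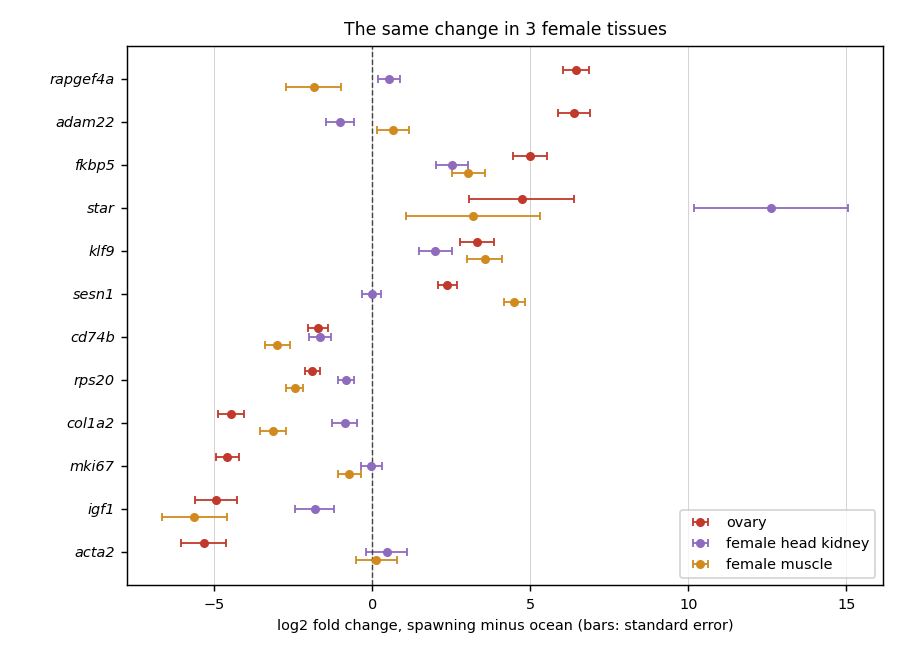
Log2 fold change from ocean to spawning with its standard error (horizontal axis) for 12 genes (vertical axis) in ovary, female head kidney and female muscle, from 1 fit of 37 libraries. The ovary points of acta2, mki67, adam22 and rapgef4a stand apart from both other tissues, whereas klf9 and cd74b were not called different in either (cd74b was against muscle with the replicate block, adjusted p = 0.0318). The head kidney point of star rests on ocean levels near 0.

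Some of the most abundant changing genes carry locus numbers without a name. By level among called genes with no overlap and a fold over 4 on the log2 scale, LOC123999118 rose from 47.0, 24.5, 81.9 and 73.7 CPM to 20226, 13919.6, 9389, 2853 and 8401 CPM (7.59 ± 0.67, adjusted p = 7.15e-06), and LOC124042726 had 2.06 to 296 CPM in the ocean and 2935 to 7356 CPM at spawning (5.18 ± 1.28, adjusted p = 0.00699). Falls in the same manner were LOC124016310, with 11538 to 23791 CPM in the ocean and 290.4 to 951 CPM at spawning (-5.17 ± 0.43, adjusted p = 4.82e-06), and LOC124038600, with 8667 to 23751 CPM in the ocean and 94.7 to 492 CPM at spawning (-6.35 ± 0.56, adjusted p = 6.84e-06). The rule that picked them was set after the values were seen, and neither the files nor the reference gene table give these loci a function.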

How the data were processed

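Poly(A) RNA of tissue kept in RNAlater was sequenced, per the labels' protocols. The authors deposited a table of expected counts per gene for female libraries, and the submitters' processing notes list Salmon 1.8.0, Trim Galore 0.6.4 and R 4.3.3 without their roles. CPM are counts scaled to library size times its TMM factor. These factors were computed separately for the ovary fit and for the fit of all female libraries, so CPM of the 2 fits differ. The genome build and annotation are not given in the sources used here. The table lists 40756 genes, of which 32639 carry a locus number and 8117 a symbol, and 45.1% of the ovary values were not whole. For testing, each expected count was rounded. The male table was not used here.

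The 13 ovary libraries were fitted together with edgeR 4.0.16 (quasi-likelihood test, TMM scaling, filterByExpr by stage) in R 4.3.3, without a replicate block, and the 37 female libraries in a second fit for tissue differences. P-values were adjusted by Benjamini-Hochberg over all genes tested at a threshold of 0.05. The scripts were tested on simulated counts. Counting intervals and the floor of 3 counts cover counting error only. The alternatives were other scalings, no filter, DESeq2 1.42.0, 2 stages alone, a replicate block, and leaving out single libraries. 3 fits that leave out 2 or 3 libraries, and 1 with a replicate block of tissues, were added after the data were seen.

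The members and the 35 gene lists were chosen with earlier results of these data known. Named genes were the 10 largest rises and falls that have a symbol, no overlap between stages and a mean log2 CPM from 3 upwards, up to 3 called members per list and direction at 1 or more, and a fixed set of key genes. Of the 117 described, 21 were chosen after their values were seen. Among these are fdxr, fdx1b, scarb1 and dmrt1, which are not marked so above.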

Additional observations from a re-analysis of the deposited data

Results flagged for a closer look

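In 29 of 351 groups of 4 or 5 ovary libraries, formed by the 117 genes named in the text and the 3 stages, 1 library lay far from the others of its stage, a gap judged by Dixon's critical value. That value would flag about 1 in 20 independent groups of normally distributed values. These groups share the same libraries and hold CPM that were not put on a log scale, so that rate is no reference here. Spawning 3 stood apart for adam22 at 108 CPM (the others 172 to 193), frzb at 3.16 CPM (the others 0.626 to 1.3), ctsba at 993 CPM (the others 1536 to 1631) and espl1 at 12 CPM (the others 0.814 to 4.03). Spawning 3 stood apart also for ddx4 at 16.1 CPM (the others 0 to 2.48), zar1 at 4.89 CPM (the others 0.501 to 1.04), rec8b at 0.359 CPM (the others 0.119 to 0.188) and henmt1 at 0.503 CPM (the others 0 to 0.0606). Spawning 3 stood apart also for birc5a at 2.52 CPM (the others 0.0651 to 0.666) and scarb1 at 10.1 CPM (the others 0.876 to 2.91). Spawning 4 stood apart for acvr2aa at 143 CPM (the others 66.9 to 75.1), rorb at 4.88 CPM (the others 8.34 to 9.72) and igfbp1a at 82.7 CPM (the others 42.1 to 50.6). Spawning 3 is also the library with the highest oocyte and cilium sums, and ocean 4 the one with the highest red cell and smooth muscle sums. The part of these in the values was not tested. Spawning 1 stood apart for pgr at 194 CPM (the others 63 to 89.2). Spawning 5 stood apart for ogna at 5.999 CPM (the others 1.13 to 2.34) and rpl28 at 74 CPM (the others 52.4 to 55.6). Ocean 4 stood apart for hsc70 at 246 CPM (the others 17.1 to 35.4), tp53inp1 at 35.5 CPM (the others 18.7 to 20.9), igf1 at 16.7 CPM (the others 7.34 to 8.73) and hemgn at 246 CPM (the others 17.4 to 55.1). Ocean 2 stood apart for rrm2b at 2.38 CPM (the others 1.08 to 1.25). River 1 stood apart for dmrt1 at 0.0624 CPM (the others 0) and sparc at 1704 CPM (the others 2774 to 2863). River 7 stood apart for acvr2aa at 33.9 CPM (the others 25.4 to 26.7) and rrm2b at 1.66 CPM (the others 0.348 to 0.557). River 8 stood apart for rps20 at 618 CPM (the others 422 to 433). River 9 stood apart for ndufs4 at 27.3 CPM (the others 22.9 to 23.4), pappa2 at 3.97 CPM (the others 1.18 to 1.32) and sycp1 at 10.2 CPM (the others 0.0624 to 1.34).

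The change from ocean to spawning differed between the ovary and another female tissue, by the fit of all female libraries, for 16 of the 24 differences tested on 12 named genes. Over all 31395 genes 9.56% differed from head kidney and 28.5% from muscle. The 12 genes were all called in the ovary, and the same ovary libraries enter the tissue differences. Their count is therefore no measure of how often the tissues differ. The differences from head kidney, on the log2 scale as ovary minus head kidney, were called for fkbp5 (2.47), sesn1 (2.39), acta2 (-5.79), mki67 (-4.56), col1a2 (-3.59), rps20 (-1.07), adam22 (7.40), rapgef4a (5.91), star (-7.90) and igf1 (-3.11). The differences from muscle, as ovary minus muscle, were called for fkbp5 (1.95), sesn1 (-2.12), acta2 (-5.47), mki67 (-3.86), adam22 (5.71) and rapgef4a (8.30). The size for star rests on ocean head kidney libraries near 0, and the star and rps20 differences were not called with the shared library number as a replicate block (adjusted p = 0.653 and 0.0735).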

How the results depend on the processing

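Over the 117 named genes, 2091 values were computed under other settings: 1953 kept their side of the threshold, 136 lost the call and 2 turned. A gene that did not pass the filter of a fit has no value in it. The fit of ocean and spawning libraries alone gave 112 values, and lck and sycp1 were among the genes not tested there. A turn was counted only where the main fit or the alternative was called. The 1953 can therefore include changes of direction between fits without a call. Under other scaling, no filter or DESeq2, 10286 called genes stayed within 1.5 times. Leaving out single libraries gave 8452 to 10968 called, 3793 to 5257 up and 4426 to 5711 down. Without ocean 2 and 4, chosen after seeing the data, 6507 genes were called, 2823 up and 3684 down, 23 named genes lost their call, and ldha turned and was not called; the cause was not tested, and the fit has 2 fewer libraries. Libraries of different stages were taken as different fish. Equal library numbers were not shown to pair them: same-numbered deviations correlated at -0.357 (number 2), 0.273 (number 4) and -0.0799 (number 5) between ocean and spawning. A replicate block on these numbers also leaves fewer degrees of freedom, and the part of this was not tested. With the replicate block 5528 genes were called, 2387 up and 3141 down, and 30 of the 117 named genes lost their call. Among these were genes given above without a lost call. Their adjusted p-values with the block were 0.057 for tagln, 0.0659 for ptges, 0.07035 for vwf and 0.0601 for plvapb. For lck, krt18b and sqstm1 they were 0.0789, 0.0571 and 0.053. The 2 that turned were ddx4, at -3.33 without spawning 3 and 5, and ldha, at 0.25 without ocean 2 and 4. River against ocean gave 147 calls with DESeq2, 85 up and 62 down. Against head kidney the upward differences were 1996 with library size alone and 1446 with DESeq2, and the downward ones 1077 with library size alone. Against muscle they were 2068 and 7803 with library size alone. Leaving out single libraries gave 2428 to 3164 differences from head kidney (719 to 978 up, 1677 to 2186 down) and 8102 to 8753 from muscle (4034 to 4364 up, 4008 to 4450 down). With the shared library number of the 3 tissues as a replicate block, added after the data were seen, 3083 genes differed from head kidney and 8482 from muscle, and 4 of the 24 named differences changed their call. Except for construction, the causes were not tested. Genes near 0, such as lck and the oocyte genes, are limited by depth.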

Other observations

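The unnamed gene LOC124008325 took a large part of some libraries, with 37340 CPM in spawning 1 and 124000 CPM in spawning 3, against 100.6, 465 and 2870.0 CPM in spawning 2, 4 and 5. In the ocean it was at 3013, 14.2, 767 and 361 CPM in libraries 2, 4, 5 and 7, and in the river at 1218, 1627, 2411 and 178.4 CPM in libraries 1, 7, 8 and 9. Its stages overlapped. The next gene along the chromosome in the reference table, LOC124008321, reached 14260.0 CPM in spawning 3 and 1785 CPM in spawning 1, and was at 18.9 CPM in spawning 2. A further neighbour, LOC124008322, was higher, at 38620 CPM in spawning 3 and 8646 CPM in spawning 1, against 16.1 CPM in spawning 2. In spawning 3 LOC124008325 held 12.08% of the counts and LOC124008322 held 3.763%. Spawning 1 and 3, the highest in LOC124008325, also had high motile cilium sums, whereas ocean 2, also high in cilium genes, was close to spawning 5 and river 8 for this locus. The part of this in other results was not tested.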
